A study of Mus musculus with 7 samples.

Results

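The 10 genes described here encode the main integrin subunits of leukocytes and the focal adhesion kinases that signal below them, namely Itgam, Itgal, Itgax, Itgb2, Itga4, Itgb1, Itgb7, Itgae, Ptk2 and Ptk2b. They were chosen by gene name from the 25033 genes listed in each library of primary mouse T-cells, and all 10 were among the 13462 genes that passed the filter for low counts and were tested. RNA sequencing had been carried out on 3 wild-type (WT) mice and 4 ORP4L knock-in (KI) mice, all C57BL/6J and 15 months old, with 1 library per mouse. ORP4L is an oxysterol-binding protein that moves lipids between membranes, and the human coding sequence was placed in the Rosa26 locus behind a CAG promoter and a stop cassette that Cre, driven by the Lck promoter, removes in T-cells. The knock-in mice were moribund when sampled and the WT mice were littermates. The study's methods describe T-cells from blood or spleen, further purification of CD4+ cells with a kit for naive CD4+ T-cells, which should remove other leukocytes, and culture with IL-2 and the mitogen PHA. They do not tie these steps to the RNA libraries, and whether the WT littermates carried Cre or the silent allele is not stated in the sources used here. The comparison asked how the adhesion genes of knock-in T-cells differ from those of WT T-cells.

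Integrins are cell surface receptors made of 1 α and 1 β subunit, and the partner decides what is bound. Leukocytes are defined by the β2 family, in which the product of Itgb2 (CD18) pairs with αL, αM, αX or αD. Itgal encodes αL, the α subunit of LFA-1, which binds intercellular adhesion molecules. Itgam and Itgax encode αM (CD11b) and αX (CD11c), which are best known from myeloid and dendritic cells and bind complement fragments and fibrinogen. Itga4 encodes α4, which pairs with β1 (Itgb1) to bind VCAM1 and fibronectin, or with β7 (Itgb7) to bind the gut addressin MAdCAM1. Itgae encodes αE (CD103), which pairs with β7 on T-cells of epithelia and binds E-cadherin. Ptk2 (FAK) and Ptk2b (PYK2) are the tyrosine kinases that are activated when integrins are engaged, and PYK2 is the usual form in blood cells.

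Between knock-in and WT T-cells, Itgax and Ptk2 were the 2 of the 10 genes that edgeR's quasi-likelihood test called at both of its thresholds, an unadjusted p below 0.01 and a change of more than 1 on the log2 scale in either direction. Both fell, Itgax by 1.41 ± 0.29 and Ptk2 by 1.06 ± 0.27 on the log2 scale (± standard error, as for every log2 fold change given here). No gene of the 10 was called higher, although Itgam, at 1.25 ± 0.44, had a larger fold change than Ptk2. Over all genes tested, 630 (4.68%) passed the same thresholds, 320 (2.38%) higher and 310 (2.30%) lower in knock-in T-cells. At an adjusted p under 0.05 (Benjamini-Hochberg over all genes) 3 genes of 13462 (0.0223%) were called and 0 of the 10. At an unadjusted p under 0.05 there were 4 of the 10, against 1845 of all genes (13.7%). DESeq2's Wald test placed 3 of the 10 under the adjusted threshold, Itgax, Itgb2 and Ptk2, against 784 of the 13452 genes to which it gave an adjusted p (5.83%). The median log2 fold change of the 10 genes was -0.20, against 0.01 over all genes, and 7 of the 10 were negative.

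The libraries held between 12918187 and 19665679 counts, and between 16020 and 16406 genes with a read. Reads counted for Osbp2, which encodes mouse ORP4L, numbered 0, 0 and 1 in the WT libraries and between 155 and 742 in the knock-in libraries. The inserted sequence is human and the mapping reference was mouse mRNA. Whether these reads came from the human or the mouse gene was not tested. All 12 T-cell markers on the list used were detected in every library, and they took between 0.239% and 0.348% of the counts in WT and between 0.131% and 0.492% in knock-in libraries, with none called. Every listed marker of granulocytes, monocytes and macrophages, dendritic cells, natural killer cells, B-cells and platelets had reads in every library, and some of these genes, such as Eomes, Gzma and Prf1, are expressed by T-cells too. The 14 granulocyte markers took between 0.265% and 0.568% of the counts in WT but between 1.14% and 12.2% in knock-in libraries. ORP4L KI replicate 1 stood apart, with the highest granulocyte share and the lowest T-cell share. Its most abundant gene was S100a9, and that of ORP4L KI replicate 4 was Ngp, another granulocyte marker. In bulk RNA, fewer cells of a type and less RNA per cell cannot be told apart.

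Of the β2 family, the 3 α subunit genes examined lie on chromosome 7 of GRCm38. Itgam (chr7:128062640-128118491) and Itgax (chr7:128129547-128150657) are neighbours on the same strand with 11055 bases between them, and Itgal (chr7:127296260-127335138) lies 727501 bases before Itgam. The 250 bases before the start of Itgam (chr7:128062390-128062639, plus strand) and of Itgax (chr7:128129300-128129549, plus strand) are shown because these adjacent genes had fold changes of opposite sign. The starts are those of the RefSeq promoter sequences. The last bases of the Itgax stretch lie inside the gene, which starts at 128129547 in GENCODE and at 128129526 in the RefSeq gene positions. Both are RefSeq sequences of GRCm38.p6, written 5′ to 3′, and matches to GAGGAA, a core sequence bound by ETS factors such as PU.1, or to TGTGGT, a core sequence bound by Runx factors, on either strand are in capitals:
Itgam: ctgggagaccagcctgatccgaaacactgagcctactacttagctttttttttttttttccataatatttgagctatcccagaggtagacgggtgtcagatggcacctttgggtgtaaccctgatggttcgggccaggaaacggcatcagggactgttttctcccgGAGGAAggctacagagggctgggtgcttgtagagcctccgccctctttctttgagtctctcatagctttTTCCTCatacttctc
Itgax: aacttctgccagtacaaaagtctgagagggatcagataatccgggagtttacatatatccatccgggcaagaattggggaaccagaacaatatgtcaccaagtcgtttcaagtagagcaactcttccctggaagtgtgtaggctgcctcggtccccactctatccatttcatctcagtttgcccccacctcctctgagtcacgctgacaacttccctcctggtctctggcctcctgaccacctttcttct
The Itgam sequence held GAGGAA 84 bases before the start, and its reverse complement 15 bases before the start. No match to GAGGAA or TGTGGT stands in the Itgax sequence, and other sequences bound by ETS or Runx factors were not searched. Among 32851 promoter sequences of this length, 23.25% held GAGGAA and 14.05% held TGTGGT, and neither core contains the other. RefSeq promoter sequences were matched for 5 of the 10 genes (Itgam, Itgax, Itga4, Itgb1 and Itgb7), of which 2 held GAGGAA and 1 held TGTGGT.

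Itgax, the gene of CD11c, had 263, 328 and 229 CPM (reads relative to library size, scaled by TMM) in WT replicates 1, 2 and 3. In ORP4L KI replicates 1 to 4 it had 60.0, 117, 140 and 94.3 CPM. Every knock-in library was below every WT library, and the group means were 273 ± 50.3 CPM (SD, n = 3) and 103 ± 33.9 CPM (SD, n = 4), a level 2.66-fold higher in WT in the fit (adjusted p = 0.0686, edgeR). The unadjusted p of edgeR was 0.00072, and an exact two-sided permutation test on log2 CPM gave 0.0571, the smallest value that 4 libraries against 3 allow. The call was made under all 13 alternative settings, with a log2 fold change between -1.60 and -1.23, and without ORP4L KI replicate 1 it was -1.23. In the reference transcripts, 9.61% of the 50-base words of Itgax are shared with Itgad, the neighbouring αD gene, so a part of its reads could be counted for either.

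Markers of dendritic cells, in which CD11c is a defining protein, moved with Itgax. Of 8 dendritic markers 6 were called lower and none higher, against 2.30% and 2.38% of all genes. Their median log2 fold change was -1.60. Their summed share was between 0.0223% and 0.0376% of the counts in WT and between 0.00592% and 0.00906% in knock-in libraries. Cd209a, a lectin of dendritic cells, had 32.9, 54.5 and 37.6 CPM in WT and between 6.03 and 10.5 CPM in knock-in libraries. The part of these cells in the Itgax result was not tested.

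Itgam, the gene of CD11b, had 174, 265 and 248 CPM in WT replicates 1, 2 and 3, and 1013, 247, 408 and 511 CPM in ORP4L KI replicates 1 to 4. Replicates 1, 3 and 4 of the knock-in were above every WT library, whereas replicate 2 was within the WT range. The log2 fold change was 1.25 ± 0.44, past the size threshold but not the p threshold (adjusted p = 0.231, edgeR). The unadjusted p was 0.0178, and the exact permutation test gave 0.171. Without ORP4L KI replicate 1 it was 0.76 (adjusted p = 0.290). Without ORP4L KI replicate 2 it was 1.48 and passed both thresholds, as it did in DESeq2's Wald test at 1.27 (adjusted p = 0.0612). In GENCODE vM21 the gene shares 68.67% of its exon bases with a predicted coding gene on the same strand, Gm49368, which has no row in the files.

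The granulocyte markers were ordered across the knock-in libraries as Itgam was. Their share of the counts was 12.2%, 1.14%, 3.10% and 4.94% in ORP4L KI replicates 1 to 4. Of the 14 markers 13 were called higher, against 2.38% of all genes, with a median log2 fold change of 4.21. The exception was Csf3r, the receptor for granulocyte colony-stimulating factor, at -0.99 ± 0.38, and S100a9 in ORP4L KI replicate 2 (2253 CPM) was within the WT range of 733 to 2381 CPM. S100a8, a calcium-binding protein that neutrophils hold in bulk, had 29058, 1048, 3447 and 5572 CPM in these replicates and between 266 and 887 CPM in WT. Mpo, the peroxidase of granulocyte precursors, had 2630, 378, 579 and 905 CPM in them and between 17.6 and 129 CPM in WT. The 12 monocyte and macrophage markers had the same order in the knock-in, at 0.688%, 0.256%, 0.370% and 0.486% of the counts, but overlapped with WT at 0.356% to 0.565%. Of these, 1 was called higher and 2 lower, against 2.38% and 2.30% of all genes, with a median log2 fold change of -0.78. CD11b is carried by all these myeloid cells, and their part in the Itgam values was not tested.

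**Figure D1:**
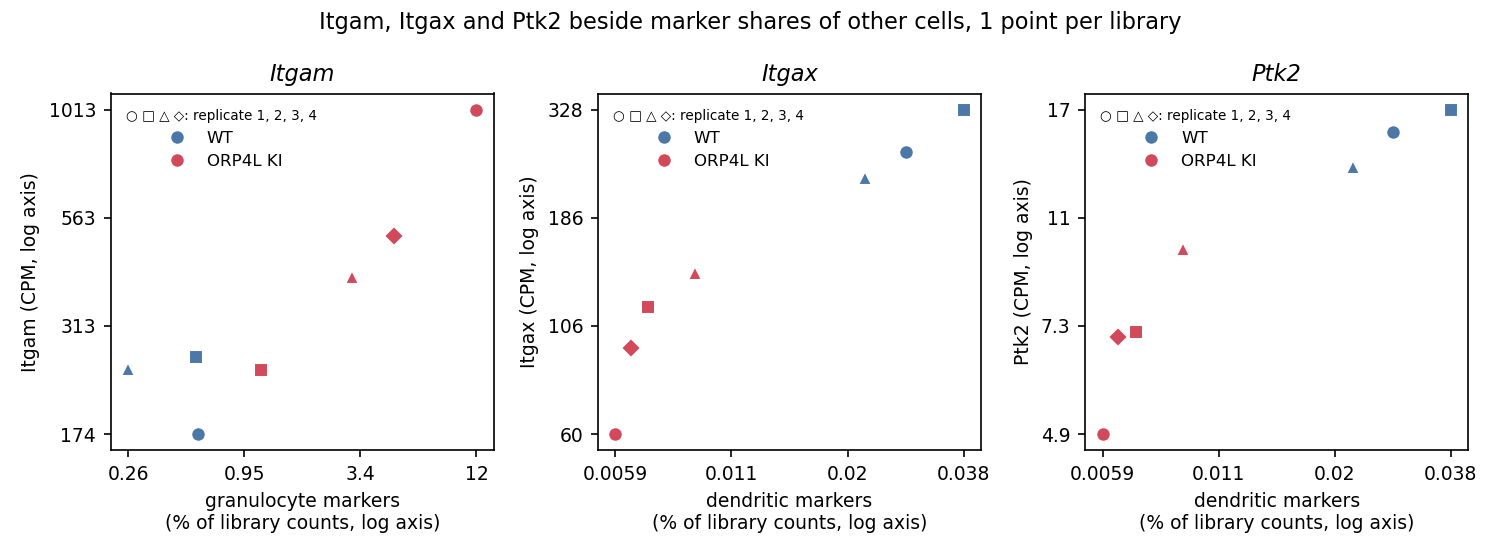
CPM of Itgam, Itgax and Ptk2 in each library (vertical, log axes) against the share of the library's counts taken by granulocyte or dendritic markers (horizontal, percent, log axes), with colours for the groups and symbols for the replicates. The 4 knock-in libraries lie apart from WT on the granulocyte axis from 1.14% upward, and Itgam is highest, at 1013 CPM, in the library at 12.2%, while Itgax and Ptk2 are lower in all 4 knock-in libraries, which also lie lowest on the dendritic axis.

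Itgb2, the common β2 subunit on chromosome 10 (chr10:77530252-77565708), had 536, 558 and 513 CPM in WT and 820, 706, 675 and 827 CPM in ORP4L KI replicates 1 to 4. All knock-in libraries were above all WT libraries, but the difference was small, with a log2 fold change of 0.50 ± 0.19 (adjusted p = 0.290, edgeR). It was 0.46 without ORP4L KI replicate 1. DESeq2's Wald test gave 0.51 (adjusted p = 0.0478). Scaled by total counts alone it was 0.35 (adjusted p = 0.479, edgeR), and with the replicate number as a block 0.44 (adjusted p = 0.946, edgeR). Granulocytes carry β2 integrins too, their summed marker share was higher in each of these 4 libraries than in any WT library, and their part in the Itgb2 values was not tested.

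Itgal, the αL subunit of LFA-1, had 652, 641 and 736 CPM in WT and 350.4, 913, 555 and 552 CPM in ORP4L KI replicates 1 to 4. The knock-in libraries lay on both sides of the WT range, with replicate 2 above it and replicates 1, 3 and 4 below. The log2 fold change was -0.19 ± 0.30 (adjusted p = 0.858, edgeR) and moved to -0.01 without replicate 1 and to -0.49 without replicate 2. The lowest and the highest library, 2.60-fold apart, were both knock-in libraries. Cd3e, a subunit of the T-cell receptor complex, had 117, 245, 149.5 and 174 CPM in ORP4L KI replicates 1 to 4 and between 115 and 176 CPM in WT, with its highest level in replicate 2 of the knock-in as well.

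Expressed per transcript length (RPKM), which allows genes to be compared, the make-up of the α subunits that can pair with β2 differed between libraries. Itgal held 53.8%, 45.9% and 55.0% of the summed RPKM of Itgal, Itgam, Itgax and Itgad in WT, and 22.3%, 66.2%, 46.2% and 43.8% in ORP4L KI replicates 1 to 4. The Itgam share was 16.1%, 21.2% and 20.6% in WT and 72.0%, 19.98%, 37.9% and 45.3% in knock-in libraries, so that αM was the most abundant α transcript in replicates 1 and 4. Itgax held between 22.1% and 30.4% in WT and between 4.94% and 15.0% in knock-in libraries, with no overlap, and Itgad at most 2.93% in any library. The summed α RPKM was 1.08, 1.20 and 1.25 times the Itgb2 RPKM in WT and 0.916, 0.936, 0.854 and 0.730 times in knock-in libraries. This ratio was thus lower in each knock-in library than in each WT library. Whether it lies above or below 1 depends on the gene lengths used. The deposited RPKM took 2501 bases for Itgb2, whereas its longest coding transcript in GENCODE has 2970.

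**Figure D2:**
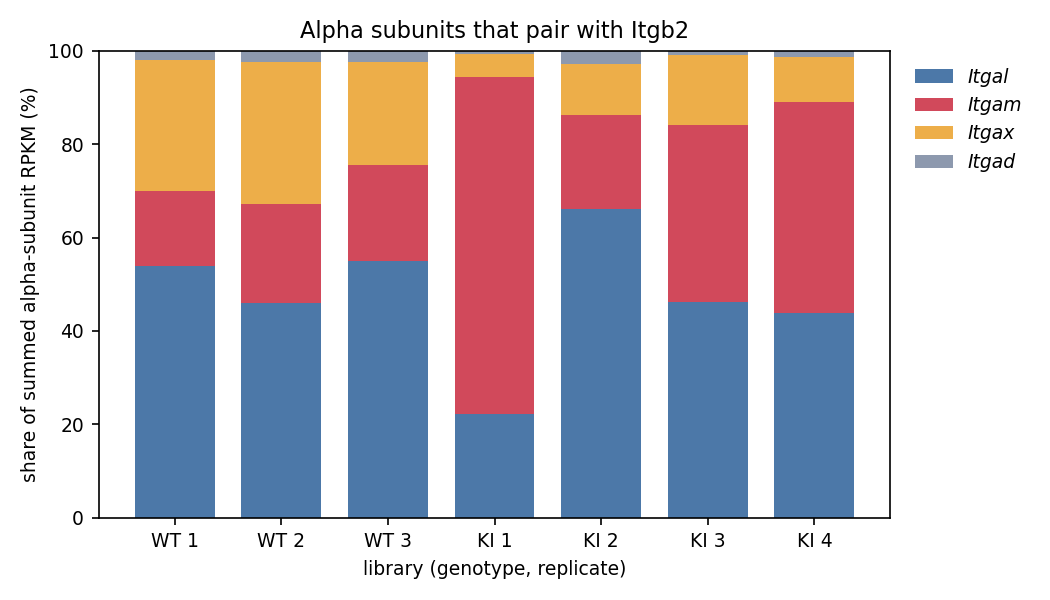
Share of the summed RPKM (vertical axis, percent, stacked to 100) of the 4 α subunit genes that pair with Itgb2, 1 bar per library with its genotype and replicate. Itgax takes 22.1% to 30.4% of each WT bar and 4.94% to 15.0% of each knock-in bar, and Itgam takes 72.0% in ORP4L KI replicate 1.

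The subunits of the α4 and β7 integrins lie on different chromosomes and none of them passed the thresholds. Itgb7 (chr15:102215995-102231944, minus strand), the β7 subunit used for homing to the gut, had 516, 476 and 457 CPM in WT and 194, 391, 349 and 391 CPM in ORP4L KI replicates 1 to 4. Each knock-in library was below each WT library, and the log2 fold change was -0.54 ± 0.26 (adjusted p = 0.411, edgeR). It was -0.36 without ORP4L KI replicate 1, the lowest library.

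Itgb1 (chr8:128685654-128733200), the β1 subunit of the fibronectin and VCAM1 receptors, had 354, 322 and 415 CPM in WT and 206, 447, 341 and 269 CPM in knock-in libraries. The groups overlapped, with a log2 fold change of -0.20 ± 0.27 (adjusted p = 0.832, edgeR).

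Itga4 (chr2:79255426-79333123), the α4 subunit, had 350.5, 348 and 742 CPM in WT and 211, 819, 318 and 249 CPM in ORP4L KI replicates 1 to 4. WT replicate 3 and ORP4L KI replicate 2 stood high and the other 5 libraries lay between 211 and 350.5 CPM. The log2 fold change of -0.27 ± 0.49 (adjusted p = 0.883, edgeR) had the largest standard error of the 10 genes and depended on these 2 libraries. Without WT replicate 3 it was 0.19, and without ORP4L KI replicate 2 it was -0.91 (adjusted p = 0.212). Cerkl, on the opposite strand, overlaps 8.04% of the exon bases of Itga4, and strandedness of the counting is not stated in the sources used here.

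Itgae (chr11:73090583-73147446), the αE subunit of T-cells in epithelia, was low in all libraries, with 20.9, 21.0 and 26.8 CPM in WT and 10.9, 36.2, 24.7 and 21.9 CPM in knock-in libraries. Its log2 fold change was 0.03 ± 0.35 (adjusted p = 0.981, edgeR), and its sign was not stable. It was -0.06 when libraries were scaled by total counts alone and -0.09 with the replicate number as a block. It was -0.03 without WT replicate 1, -0.02 without WT replicate 2 and -0.27 without ORP4L KI replicate 2. ORP4L KI replicate 1 was the lowest and replicate 2 the highest of the 7 libraries for Itgae, as also for Itgal, Itgb1, Itga4 and Ptk2b.

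Of the kinases, Ptk2 (chr15:73205102-73423280, minus strand), the gene of FAK, had 15.3, 16.6 and 13.3 CPM in WT and 4.87, 7.18, 9.82 and 7.03 CPM in ORP4L KI replicates 1 to 4. All knock-in libraries were below all WT libraries, with means of 7.22 ± 2.03 CPM (SD, n = 4) and 15.1 ± 1.64 CPM (SD, n = 3). Ptk2 was 2.09-fold higher in WT in the fit (adjusted p = 0.112, edgeR), with an unadjusted p of 0.00288 and an exact permutation p of 0.0571. These levels rest on between 80 and 264 reads per library. The fold change was close to the size threshold, and the call was lost without WT replicate 1, WT replicate 2 or ORP4L KI replicate 1, where the log2 fold changes were -1.05, -0.99 and -0.91.

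Ptk2b (chr14:66153257-66281052, minus strand), the gene of PYK2, had 233, 222 and 249 CPM in WT and 165, 276, 239 and 233 CPM in knock-in libraries. It had the smallest spread of the 10 genes, 1.67-fold from the lowest to the highest library, and a log2 fold change of -0.04 ± 0.21 (adjusted p = 0.962, edgeR). Ptk2b RPKM was far above Ptk2 RPKM in every library, since the ratio of Ptk2 to Ptk2b was between 0.0475 and 0.0662 in WT and between 0.0231 and 0.0364 in knock-in libraries.

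**Figure D3:**
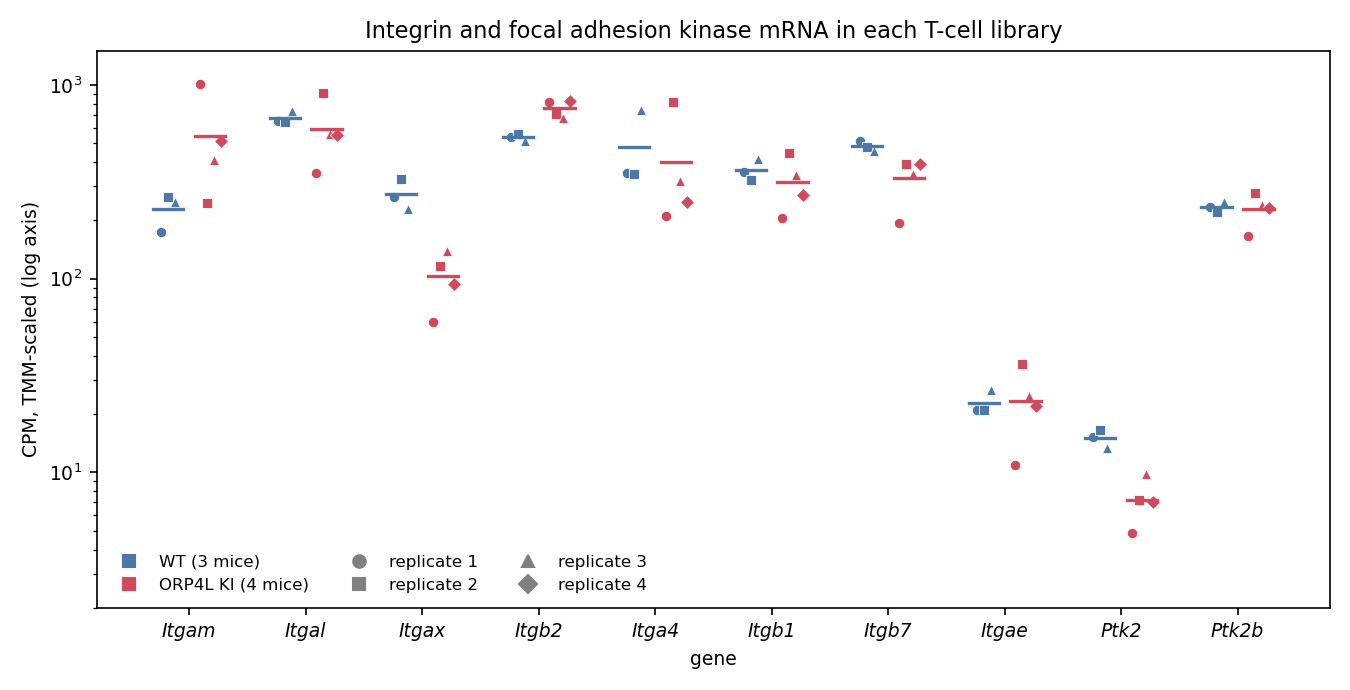
CPM of the 10 genes in each library (vertical log axis), with WT left and knock-in right for each gene, symbols for the replicates and bars for the group means. Itgax, Itgb7 and Ptk2 do not overlap between the groups and are lower in knock-in libraries, Itgb2 does not overlap and is higher, and Itgam reaches 1013 CPM in ORP4L KI replicate 1.

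Across the 10 genes, 4 had groups that did not overlap, 1 higher (Itgb2) and 3 lower (Itgax, Itgb7 and Ptk2) in knock-in libraries. Of all genes tested, 13.8% did not overlap, 6.43% higher and 7.38% lower. The fold changes of Itgam, Itgax and Ptk2 lay outside the range from -0.95 to 1.05, the 5th to the 95th percentile of all genes, and the other 7 lay inside it.

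**Figure D4:**
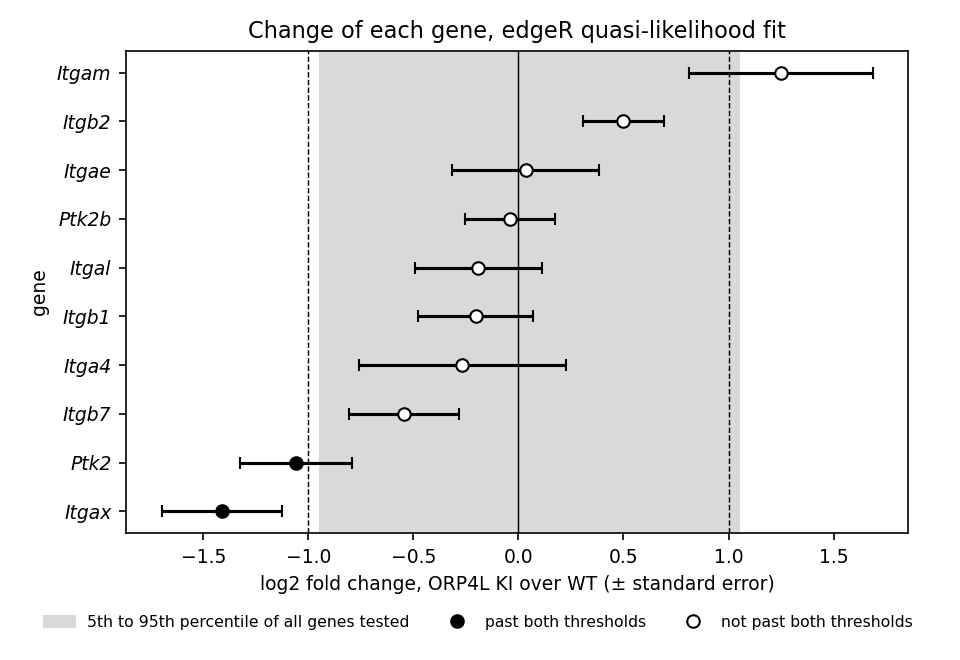
Log2 fold change of each gene, knock-in over WT, from edgeR's quasi-likelihood fit (horizontal axis) with ± 1 standard error as bars, dashed lines at the size threshold and the range of all genes from the 5th to the 95th percentile in grey. Filled points, Itgax at -1.41 and Ptk2 at -1.06, passed both thresholds, and Itgam at 1.25 passed the size threshold alone.

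The order of the levels, as mean RPKM, was headed by Itgb2 in both groups, at 227 in WT and 288 in knock-in T-cells. In WT, Itgb7 followed at 192 and Itgal at 138, each without overlap with its neighbour in the order. The lead of Itgb2 over Itgb7 in WT depends on the Itgb2 length of 2501 bases behind the deposited RPKM. Its longest coding transcript in GENCODE has 2970 bases, which would lower its level. The next genes were Itgb1 at 92.3, Itgax at 71.2, Ptk2b at 63.8, Itga4 at 52.3 and Itgam at 51.7, and neighbours among these 5 overlapped in their range over libraries. Itgae at 6.32 and Ptk2 at 3.61 were apart from the rest and from each other. In knock-in T-cells Itgam stood in the 4th place at 106 and Itgax in the 8th at 24.9, but every pair of neighbours from Itgb7 at 121 down to Itgax overlapped in their range over mice. Itgae at 6.05 and Ptk2 at 1.59 were again the lowest.

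Ratios of 2 genes within a library do not depend on how libraries are scaled, and 8 were compared by an exact two-sided permutation test over samples, which cannot go below p = 0.0571 with 4 libraries against 3. The log2 ratio of Itgax to Itgal was -0.94, -0.60 and -1.32 in WT and -2.18, -2.60, -1.62 and -2.18 in ORP4L KI replicates 1 to 4, a difference of -1.19 ± 0.29 (standard error) with no overlap, at that smallest exact p. The log2 ratio of Ptk2 to Ptk2b was -4.11, -3.92 and -4.40 in WT and -5.26, -5.44, -4.78 and -5.22 in knock-in libraries, a difference of -1.04 ± 0.20, also without overlap and at the smallest exact p. These ratios were lower in 4 of 4 knock-in libraries, including replicate 2, in which Itgal and Ptk2b were highest. After adjustment over the 8 ratios both had p = 0.229 by the exact permutation test.

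The other 6 ratios overlapped between the groups. The difference in log2 ratio was 1.36 ± 0.72 for Itgam to Itgal (exact permutation p = 0.171), with the knock-in libraries spread from -1.73 to 1.69. It was -0.76 ± 0.35 for Itgal to Itgb2 (exact p = 0.171) and 0.59 ± 0.42 for Itgam to Itgb2 (exact p = 0.286). For the β7 integrins it was -0.34 ± 0.21 for Itgb7 to Itgb1 (exact p = 0.114) and 0.52 ± 0.24 for Itgae to Itgb7 (exact p = 0.171). The ratio of Itga4 to Itgb1 differed by -0.14 ± 0.36 (exact p = 0.514).

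The other genes of integrin adhesion were read from lists of related genes. Of 18 other integrin subunits, 16 were tested, 3 were called lower and 0 higher, against 2.30% and 2.38% of all genes. Their median log2 fold change was -0.45. Those that fell were Itga2, the α2 subunit of a collagen receptor, Itga8, the α8 subunit, and Itga9, the α9 subunit, with log2 fold changes of -1.48 ± 0.37, -1.50 ± 0.42 and -1.29 ± 0.28. None of these is an abundant transcript, with WT means of 18.0, 3.40 and 6.07 CPM. The log2 fold change was -0.55 for Itga5 (α5), -0.61 for Itgad (αD) and -0.53 for Itgb5 (β5), which were not called. Without WT replicate 3, the library with the most Itga2, the list had 1 call.

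Genes that regulate the switch of integrins to the binding state, activators for the most part with a few restraining proteins such as Sipa1, Sharpin and Itgb1bp1, showed no call. Of 20 such genes, 19 were tested, with 0 called by edgeR or by DESeq2's Wald test, 0 at an unadjusted p under 0.05 and a median log2 fold change of -0.04. Of all genes, edgeR called 4.68%, and 13.7% had an unadjusted p under 0.05 in its test. At such shares a list of this size would hold few. Fermt1, an epithelial kindlin, had no reads in any library. The largest fold changes among the well-expressed members were -0.30 for Rapgef1, an exchange factor for Rap1, 0.27 for Itgb1bp1, a protein that binds the β1 tail and restrains activation, -0.23 for Fyb, an adaptor of the T-cell receptor, and 0.22 for Rap1b, a small GTPase that activates LFA-1.

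Below the receptors, 29 of 30 focal adhesion adaptors and kinases were tested and 1 was called, with a median log2 fold change of -0.003. That is near the share of 4.68% called over all genes. Vcl encodes vinculin, which links talin to actin, and it rose by 1.33 ± 0.37 on the log2 scale (adjusted p = 0.144, edgeR). It had 33.4, 43.2 and 42.4 CPM in WT and 178, 54.8, 83.1 and 83.5 CPM in ORP4L KI replicates 1 to 4, and the call was lost without ORP4L KI replicate 1 and without any one of the WT replicates. The values of the other named members were -0.54 for Parvb (β-parvin), -0.46 for Syk, a tyrosine kinase that acts below β2 integrins, and 0.35 for Rac2, the Rac GTPase of blood cells.

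Of 16 integrin ligands 11 were tested, 1 called higher and 1 lower, against 2.38% and 2.30% of all genes. Their median log2 fold change was -0.30. Spp1, osteopontin, rose by 1.47 ± 0.35 on the log2 scale, from 23.7, 15.3 and 15.2 CPM in WT to 47.3, 30.2, 42.5 and 81.0 CPM in knock-in libraries. Fn1, fibronectin, the ligand of α4β1, fell by 1.13 ± 0.35, from a mean of 329 CPM in WT to 150.4 CPM in knock-in libraries, and its groups overlapped. Thbs1, thrombospondin, at -0.89, and Icam2, a ligand of LFA-1, at -0.32, were not called. Neither ligand call held under every setting, since no gene of the list was called without WT replicate 2 or without WT replicate 3.

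Markers of natural killer cells and B-cells were read beside the integrins because these cells carry β2 and α4 integrins as well. Of 7 natural killer markers 5 were called lower, against 2.30% of all genes, with a median log2 fold change of -1.50. Eomes, a transcription factor that T-cells also express, went the other way, at 1.59 ± 0.50 without being called, with 92.7, 65.9 and 101 CPM in WT and 105, 534, 218 and 184 CPM in ORP4L KI replicates 1 to 4. The summed share of the 7 markers overlapped, between 0.0494% and 0.0631% in WT and between 0.0167% and 0.0811% in knock-in libraries. Ncr1, a receptor that defines these cells, had between 16.0 and 22.7 CPM in WT and between 2.43 and 7.78 CPM in knock-in libraries. None of 8 B-cell markers and none of 8 platelet markers was called, against 4.68% of all genes, with medians of -0.29 and 0.09. The part of natural killer and dendritic cells in the lower Ptk2 values was not tested.

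The genes whose pattern over the 7 libraries was most like that of the 3 most variable integrins were sought among 9353 genes by the root mean square difference of centred log2 CPM. For Itgax they were Sulf2 (0.145), a sulfatase of heparan sulfate, Slc46a3 (0.168), a solute carrier, and Mycl (0.172), a transcription factor of the MYC family. For Itgam they included the unnamed gene B430306N03Rik (0.112) and Cybb (0.145), the catalytic subunit of the phagocyte NADPH oxidase, which had 248, 318 and 305 CPM in WT and 1216, 297, 459 and 506 CPM in ORP4L KI replicates 1 to 4. For Itga4 they were Gvin1 (0.169), a large GTPase induced by interferon, Tgfbr3 (0.170), a TGF-β co-receptor, and Ash1l (0.175), a histone methyltransferase. The SD of log2 CPM over the libraries was 0.88 for Itgax, 0.85 for Itgam and 0.75 for Itga4. The genes were picked for the smallest difference, so differences below these SDs are no evidence of likeness. They describe these libraries alone.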

How the data were processed

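T-cell libraries of 3 WT and 4 ORP4L KI mice were grouped by the genotype in their labels. The authors trimmed adapters, mapped reads to a mouse mRNA reference with FANSe3 and merged splice variants, and the submitters' processing notes name mm10. They deposited the raw read count of each gene, and also its RPKM, which uses gene length. Version and handling of multi-mapping reads are not given in the sources used here. Counts (12918187 to 19665679 per library) entered edgeR 4.0.16 under R 4.3.3 (filterByExpr, TMM, quasi-likelihood test, no covariates), and alternatively with DESeq2 1.42.0. The standard error was the log2 fold change over the square root of F. Thresholds were the lines the study drew on its volcano plot. CPM are scaled by TMM, with a prior count of 2 for log2 CPM. RPKM served for levels and ratios, with exact permutation tests in SciPy 1.17.1. The fit was tested on simulated data. The genes and lists were chosen with earlier results of these data known. Beside the 10 genes and Osbp2, the text names per list the called genes and up to 4 with the largest change among well-expressed genes (mean log2 CPM 3 or more), and for the 3 most variable integrins the 3 most similar genes (of which 1 is not reported here), with Cd3e, S100a8, S100a9, Mpo, Cd209a and Ncr1 as context. Csf3r, Gzma, Prf1, Sipa1 and Sharpin were named after values were seen. Alternatives were other scaling, other filters, DESeq2, a replicate block and leaving out each library. Positions and overlaps are from GENCODE vM21, apart from the RefSeq promoters and the RefSeq start of Itgax.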

Additional observations from a re-analysis of the deposited data

Results flagged for a closer look

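Among the 4 knock-in libraries, the log2 ratio of Itga4 to Itgb1 RPKM in ORP4L KI replicate 2 (-0.357) lay far from the others, which were between -1.34 and -1.20. It is the library in which Itga4 (819 CPM) and Itgb1 (447 CPM) were both highest. Of the 18 sets of 4 values examined this way, 1 was singled out, where chance gives about 0.9. WT replicate 3 had a like ratio, -0.388, and the other WT libraries had -1.24 and -1.12.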

How the results depend on the processing

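Of 130 fold changes of the 10 genes under alternatives, 116 kept their sign and their side of the thresholds, 4 lost the call, 2 gained it and 8 changed sign. Itgae changed sign with total counts alone (-0.0636), which gave 275 higher and 407 lower genes instead of 320 and 310 and moved the median of all genes by -0.14. The 10 genes had 1 adjusted call with no filter and 3 by DESeq2's Wald test. Over all genes, adjusted calls numbered 784 by DESeq2's Wald test, 176 with no filter, 113 under total counts, and 0 when 10 counts were asked of every library (1549 at an unadjusted p under 0.05). Integrin ligands had 1 call with DESeq2's size factors.

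Leaving out one library at a time gave 1 to 3 calls among the 10 genes and 0 to 1 adjusted calls, 328 (without WT replicate 2) to 805 (without ORP4L KI replicate 2) calls over all genes, and 0 to 342 adjusted calls, the highest without ORP4L KI replicate 2. Calls ranged from 1 to 3 in other integrin subunits, 0 to 1 in adaptors and kinases and 0 to 3 in ligands. Log2 fold changes ranged from -0.91 to 0.19 for Itga4, -0.27 to 0.26 for Itgae and -0.16 to 0.0810 for Ptk2b, and the ratio of Itga4 to Itgb1 from -0.37 to 0.13. The cause of these shifts was not tested.

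Same-numbered libraries correlated at 0.151, -0.529 and -0.0325 in their deviations from the group means. Differently numbered ones correlated at -0.419 to 0.513. With so few libraries these values cannot decide whether mice of the same number were a pair. With the replicate number as a block (replicates 1 to 3), 466 genes were called and 48 passed the adjusted threshold, against 442 and 0 (1421 at an unadjusted p under 0.05) for the same libraries without the block. Of the 10 genes 1 was called (Itgax), while Ptk2 had -1.10 (adjusted p = 0.330, edgeR) and Itgae -0.0906. In the block, 1 of the other integrin subunits, 0 adaptors and kinases and 1 ligand were called.

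The exact test of 4 libraries against 3 has a smallest p of 0.0571, and Ptk2 rests on counts of 80 to 264.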
